A study of Mus musculus with 2 samples.

Results

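The miR-15/16 family is a set of mouse microRNAs (miRNAs) that share the bases with which a miRNA finds its targets. Its 7 members were the rows of the array files named mmu-miR-15a-5p, mmu-miR-15b-5p, mmu-miR-16-5p, mmu-miR-195a-5p, mmu-miR-322-5p, mmu-miR-497a-5p and mmu-miR-503-5p (the prefix mmu stands for mouse), out of 1881 mouse miRNAs on the array. The family was read in femurs of female C57BL/6 mice aged 9 months, marrow and bone together, after ovariectomy (OVX), in which the ovaries are taken out surgically, and after a sham operation. Each group was 1 RNA sample pooled from 4 mice and hybridised to 1 single-colour Agilent miRNA array, and the time between surgery and collection is not given in the sources used here. With 1 pooled sample a group no test was possible and no p-values are printed, so the words higher and lower apply to this pair of arrays alone. The precision is limited by how few arrays there are.

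A miRNA guides a silencing complex to messenger RNAs that pair with its bases 2 to 8, the seed, so miRNAs with the same seed share many predicted targets. The miR-15/16 family is known for repressing cyclins and the survival factor Bcl2 and thereby restraining cell division, and the locus of miR-15a and miR-16-1 is lost in many human B-cell leukaemias. In bone, miR-322 has been linked to osteoblast differentiation in mouse cells, miR-503 to restraint of osteoclast formation in human cells and mice, and the miR-497 and miR-195 pair to bone vessels in mice.

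The mature sequences below, from the RefSeq annotation of mouse assembly GRCm38.p6, show what the members share and where they part. Capitals mark bases 2 to 8.
miR-15a-5p: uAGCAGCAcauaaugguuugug
miR-15b-5p: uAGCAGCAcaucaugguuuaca
miR-16-5p: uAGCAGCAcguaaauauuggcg
miR-195a-5p: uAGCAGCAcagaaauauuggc
miR-322-5p: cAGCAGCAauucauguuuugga
miR-497a-5p: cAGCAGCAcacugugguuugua
miR-503-5p: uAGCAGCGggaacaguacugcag
All 7 members carry the letters AGCAGC, and 6 of them have the full seed AGCAGCA, which pairs with TGCTGCT in a target. miR-503-5p has the seed AGCAGCG, a change of A8G relative to miR-15a-5p when positions are counted from 1 at the 5′ end of the mature miRNA. Of the 1679 mature mouse miRNA entries in the RefSeq table, 10 (0.596%) have the seed AGCAGCA and 1 has AGCAGCG. Over their whole length, miR-15a-5p and miR-15b-5p are identical at 18 of 22 bases (11 of 15 outside the seed) and differ by A12C, G20A, U21C and G22A. miR-16-5p and miR-195a-5p are identical at 19 of 21 bases (12 of 14 outside the seed) and differ by G10A and U11G.

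The members come from 4 gene clusters, and the array files give the positions of their probes on mouse build mm9. miR-15a-5p probes match chromosome 14 from 62250879 to 62250899 on the minus strand, and miR-15b-5p probes match chromosome 3 from 68813700 to 68813718 on the plus strand. miR-16-5p probes match next to each of them, on chromosome 3 from 68813844 to 68813861 and on chromosome 14 from 62250736 to 62250753. The mature miR-16-5p of the genes Mir16-1 and Mir16-2 is the same, so its signal sums both loci. In RefSeq, Mir15a and Mir16-1 lie within the span of the long noncoding RNA gene Dleu2, and Mir15b and Mir16-2 within the protein-coding gene Smc4, a condensin subunit; whether exon or intron holds them was not looked up. miR-195a-5p and miR-497a-5p probes match chromosome 11 on the plus strand, from 70048566 to 70048584 and from 70048234 to 70048253, outside any longer gene in that annotation. miR-322-5p and miR-503-5p probes match chromosome X on the minus strand, from 50407455 to 50407475 and from 50407174 to 50407188, within the long noncoding RNA gene C430049B03Rik.

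The OVX array was brighter for most miRNAs measured on both arrays, and the scaling below removes 1 constant per array. The 75th percentile of the signal, taken over 350 probes that both arrays read well above background, was 261 units on the OVX array and 129 on the sham array, a factor of 2.02, or 1.01 on the log2 scale. Levels are log2 of the processed signal minus the log2 of that percentile, so a difference is set against the rest of the miRNAs read. A probe was taken as well above background if more than 50% of its spots were, and a miRNA as present if at least 1 of its probes was. With this rule 299 miRNAs were present on the OVX array and 202 on the sham array. Of these, 197 were present on both arrays, 102 in OVX alone and 5 in sham alone. Over the 197, the differences (OVX minus sham) had a median of -0.04, quartiles of -0.36 and 0.28 and an SD of 0.52. The error printed with a difference is the standard error over a probe's spots on each array (spot SE). It is technical and holds no variation between mice.

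Markers of the labelled tissue were read first. All 4 red-cell miRNAs and all 3 miRNAs of other blood cells were present on both arrays, and so were both cartilage miRNAs (miR-140-3p and miR-140-5p) and 1 of 2 endothelial ones (miR-126a-3p). Of 4 muscle miRNAs, 2 were present in sham alone. miR-122-5p of liver and miR-124-3p and miR-9-5p of brain were well above background on neither array. The summed scaled signal of the red-cell probes was 63.4 in OVX and 52.8 in sham, and that of the other blood-cell probes 52.6 in OVX and 71.6 in sham, in units of each array's 75th percentile. Within both lists the members differed in direction. Of the red-cell miRNAs, miR-451a (0.28), miR-144-3p (0.85) and miR-144-5p (0.97) were higher in OVX and miR-486a-5p (-0.71) was lower, and of the other blood-cell miRNAs, miR-142a-3p (0.63) and miR-142a-5p (1.08) were higher and miR-223-3p (-0.63) was lower. For the 2 lymphocyte miRNAs the sums were 1.5 in OVX and 0.716 in sham, and for the endothelial ones 0.732 in OVX and 0.444 in sham. In each of these 2 lists only 1 miRNA was present on both arrays, miR-150-5p (1 measured probe) and miR-126a-3p. Cartilage gave 1.59 in OVX and 1.98 in sham, but its 2 miRNAs differed in direction, with miR-140-3p lower in OVX (-0.49) and miR-140-5p higher (0.17). The 4 muscle miRNAs gave 0.219 in OVX and 0.452 in sham. Their unscaled sums were nearly equal, at 57.0 in OVX and 58.4 in sham, and none of them was present on the OVX array. The part of cell composition in the family's differences was not tested, and in pooled whole tissue fewer cells of a type and less RNA per cell cannot be told apart.

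The 4 members miR-15a-5p, miR-15b-5p, miR-16-5p and miR-322-5p were present on both arrays and could be measured. miR-195a-5p and miR-497a-5p were present in OVX alone, and miR-503-5p on neither array. Of the 4 measured members, 0 differed by at least 2-fold, against 4.06% of all 197 measured miRNAs. At 1.5-fold the count was also 0, against 25.9%. With only 4 members, counts of 0 do not set the family apart from those shares. Of the 4, miR-15a-5p, miR-322-5p and miR-16-5p were above 0 and miR-15b-5p was below. Their median difference was 0.09, against -0.04 over all measured miRNAs, and they spanned 0.76 on the log2 scale. The member at the top and the member at the bottom of that span were miR-15a-5p and miR-15b-5p, which are identical at 18 of 22 bases.

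mmu-miR-15a-5p, transcribed with miR-16-1, was the member with the highest difference. Its shorter probe gave a processed signal of 592 ± 30.3 in OVX (SD between 14 spots) and 219 ± 16.9 in sham (15 spots), and its longer probe 653 ± 38.5 in OVX (14 spots) and 239.9 ± 20.3 in sham (15 spots). After scaling, the spots of the 2 arrays did not overlap for either probe: the lowest OVX spots lay at 1.04 and 1.13, above the highest sham spots at 0.91 and 1.03. Its level was 1.26 in OVX and 0.83 in sham, a difference of 0.43 (spot SE 0.03), or 1.35-fold. The probes agreed, at 0.43 for each. Among spots that share an array position, OVX was higher in 14 of 14 pairs for each probe. Spots repeat the reading of 1 pooled sample, and how many of the 197 measured miRNAs separate in this way was not counted. Over all measured miRNAs the median spot SE was 0.05 and the SD of the differences 0.52, so separated spots do not set this member apart. By difference, miR-15a-5p ranked 32 of the 197 measured miRNAs from the top.

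mmu-miR-15b-5p, transcribed with miR-16-2, differed the other way. Its shorter probe gave 1505 ± 73.6 in OVX (14 spots) and 965 ± 48.6 in sham (14 spots), and its longer probe 2915 ± 85.0 in OVX (14 spots) and 1779 ± 54.1 in sham (13 spots). The unscaled OVX signals were thus 1.56 and 1.64 times those in sham, less than the factor of 2.02 used for scaling. After scaling, the OVX spots of each probe lay below those of sham, with the highest OVX spots at 2.62 and 3.54 and the lowest sham spots at 2.77 and 3.72. Its level was 3.01 in OVX and 3.34 in sham, a difference of -0.34 (spot SE 0.02), or 0.792-fold. Its probes gave -0.37 and -0.30, and OVX was lower in 13 of 13 spot pairs for each. As for miR-15a-5p, the share of all measured miRNAs with such separation was not counted. By difference it ranked 142 of 197 from the top.

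mmu-miR-16-5p, the product of both clusters, lay between its partners. Its shorter probe gave 509.8 ± 48.8 in OVX (14 spots) and 237 ± 29.4 in sham (15 spots), and its longer probe 1821 ± 105 in OVX (14 spots) and 860.1 ± 60.1 in sham (14 spots). Its scaled level was 1.89 in OVX and 1.81 in sham, a difference of 0.08 (spot SE 0.03), or 1.06-fold. The scaled spots of the 2 arrays overlapped, with OVX higher in 11 of 14 and 11 of 13 pairs. Its probes gave 0.09 and 0.07, each below the SD of 0.11 found between probes of the same miRNA over the 139 miRNAs with at least 2 measured probes.

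mmu-miR-322-5p, the mouse counterpart of human miR-424 and a product of the X-linked cluster, was dim but measurable. Its shorter probe gave 66.9 ± 4.22 in OVX (15 spots) and 31.7 ± 4.09 in sham (15 spots), and its longer probe 90.1 ± 9.67 in OVX (14 spots) and 41.2 ± 5.75 in sham (15 spots). Its scaled level was -1.75 in OVX and -1.84 in sham, a difference of 0.09 (spot SE 0.04), or 1.07-fold. Spots overlapped widely after scaling, with OVX higher in 9 of 15 and 9 of 14 pairs. Its probes gave 0.07 and 0.12, on either side of the SD of 0.11 between probes of a miRNA.

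**Figure D1:**
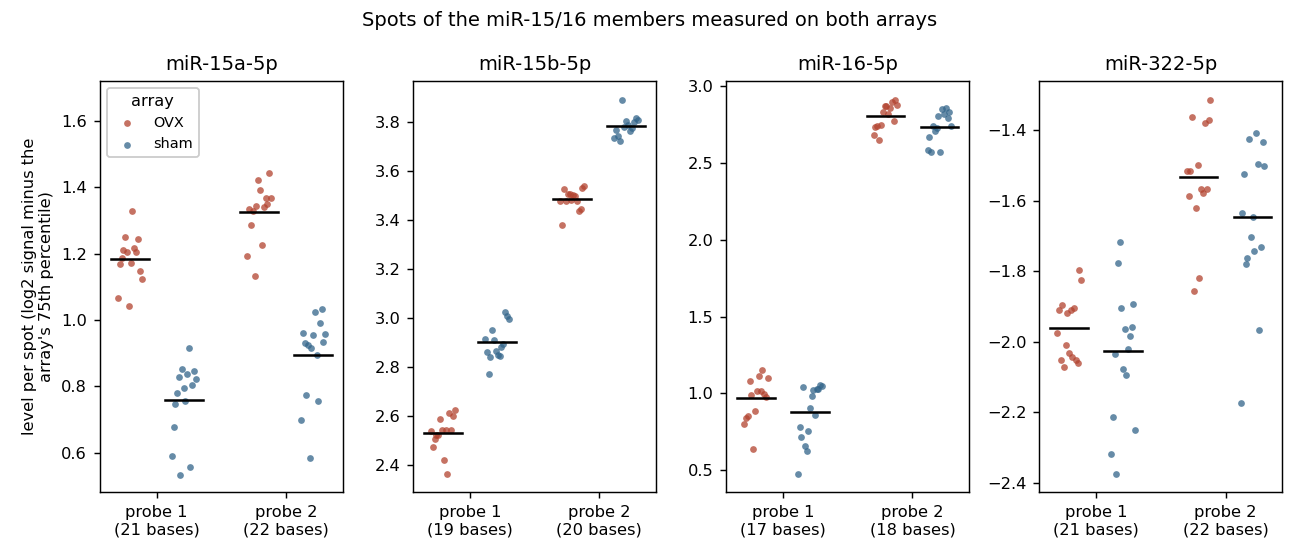
Scaled level of every spot without an outlier flag (vertical axis, log2 of the processed signal minus the array's 75th percentile, a range of its own in each panel) for the 2 probes of each member present on both arrays; points are spots, bars the level of the probe mean, with OVX left of sham. The OVX spots of miR-15a-5p lie above those of sham and the OVX spots of miR-15b-5p below them, while those of miR-16-5p and miR-322-5p overlap.

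The opposite directions of miR-15a-5p and miR-15b-5p were the widest contrast within the family. The difference of miR-15a-5p minus that of miR-15b-5p was 0.76 (spot SE 0.03), a 1.70-fold change in their ratio between OVX and sham. The pair was picked after the values were seen, as the highest and the lowest measured member. The width of the contrast therefore does not set the pair apart. For scale, the differences of all 197 measured miRNAs had an SD of 0.52. A constant scaling of either array cancels in this contrast. It was above 0 under all 17 alternative settings, at 0.44 to 0.85, of which 6 leave it at 0.76 because they shift each array by a constant or touch none of its probes; the lower end came from normexp background correction followed by quantile normalization, and quantile normalization alone gave 0.51. The sign for each miRNA alone was less firm. miR-15a-5p was above 0 in 17 of 17 alternatives (0.24 to 1.44), whereas miR-15b-5p was below 0 in 14 of 17 and above 0 with Agilent's gene-level signal (0.02), with scaling to the array's control probes (0.29) and without scaling (0.68). Not all of these alternatives could change a sign. Flooring dim signals and requiring all spots well above background left both differences as reported, and no scaling or control-probe scaling could only raise them.

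The probes of this pair show how much sequence separates the 2 readings. Each is printed 5′ to 3′ as in the array files, with the bases that pair with miRNA bases 2 to 8 in capitals.
A_54_P4381, miR-15a-5p: cacaaaccattatgTGCTGCT
A_54_P4382, miR-15a-5p: cacaaaccattatgTGCTGCTa
A_54_P1005, miR-15b-5p: tgtaaaccatgatgTGCTG
A_54_P1006, miR-15b-5p: tgtaaaccatgatgTGCTGC
The miR-15a-5p probes leave 4 of their bases unpaired against miR-15b-5p, and the miR-15b-5p probes leave 4 unpaired against miR-15a-5p, 3 of them at the probe's 5′ end. Cross-hybridisation was not measured. The mean GC content of the probes was 41.9% for miR-15a-5p and 43.6% for miR-15b-5p. Over all measured miRNAs the difference had a Spearman correlation of -0.32 with probe GC content and 0.22 with level, given as a description over miRNAs of the same 2 arrays. With the linear GC trend removed (-0.12 per 10% GC) the contrast was 0.75. The 2 GC contents are close, so this removal could move the contrast only slightly and is no check on it.

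**Figure D2:**
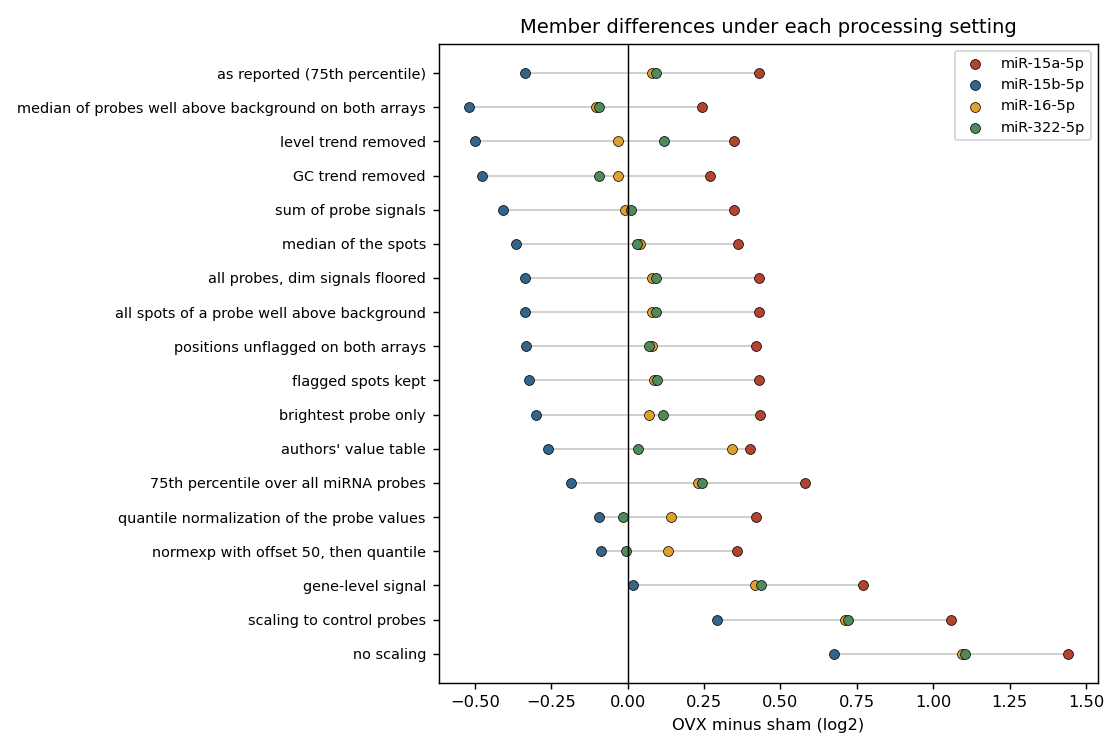
Difference OVX minus sham on the log2 scale (horizontal axis) of the 4 measured members under each processing setting (vertical axis); the grey line joins the lowest and highest member, and the black line marks 0. miR-15a-5p is to the right of miR-15b-5p in every setting shown, while the position relative to 0 shifts with the scaling.

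The 3 remaining members were too dim for a difference. mmu-miR-195a-5p, which shares all but 2 of 21 bases with miR-16-5p, was present on the OVX array only. Its brighter probe gave 44.4 ± 6.40 in OVX, with 15 of 15 spots well above background, and 16.3 ± 3.21 in sham, with 3 of 15. The second probe gave 19.2 in OVX and 5.47 in sham. Set against the lowest signal of a present miRNA, the brighter probe alone was at least 1.23-fold higher in OVX after scaling, and at least 2.49-fold without scaling. The second probe, with 7 of 15 OVX spots well above background, gave no bound. Such bounds are computed only for miRNAs present on 1 array, so their side follows from that rule and lends no support to a difference. Its probes leave 2 bases unpaired against miR-16-5p, whose scaled level differed by 0.08, and the part of miR-16-5p in this signal was not tested.

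mmu-miR-497a-5p, the cluster partner of miR-195a-5p, was also present on the OVX array only. Its brighter probe gave 29.5 ± 2.19 in OVX, with 13 of 13 spots well above background, and 11.8 ± 3.71 in sham, with 1 of 15, and its second probe 8.78 in OVX and 4.0 in sham, with no spot well above background on either array. After scaling, the OVX level was below the lowest sham level of a present miRNA, so no fold is given; without scaling the bound was at least 1.65-fold higher in OVX. mmu-miR-503-5p, the member with the altered seed, was well above background on neither array. Its brighter probe gave 19.4 ± 4.80 in OVX, with 6 of 15 spots well above background, and 7.11 ± 2.89 in sham, with 0 of 15. For comparison, the negative control spots gave 1.36 ± 2.86 in OVX (978 spots) and 1.93 ± 2.81 in sham (982 spots). Presence in OVX alone was common on these arrays, at 102 miRNAs against 5 in sham alone. Of the 299 miRNAs present on the OVX array, those 102 were not present in sham, and neither were 2 of the 6 members present in OVX. The pattern therefore does not set these 2 members apart.

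**Figure D3:**
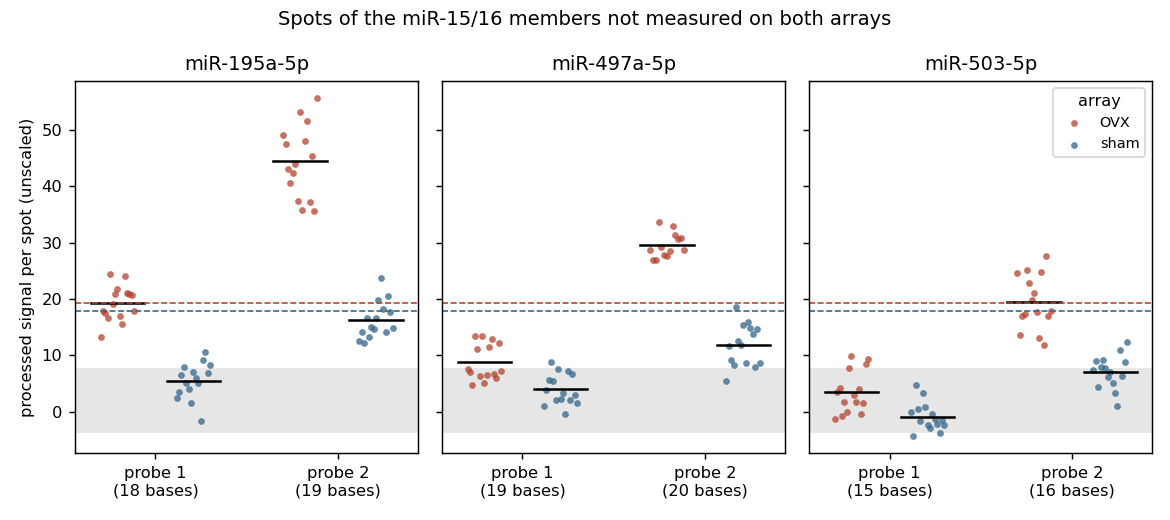
Processed signal of every spot without an outlier flag (vertical axis, unscaled) for the 2 probes of the 3 members not present on both arrays; points are spots, bars their means, with OVX left of sham. Dashed lines mark the lowest signal of a present miRNA on each array (19.3 in OVX and 17.8 in sham), and the grey band spans 2 SD on either side of the mean of the sham negative controls; 1 probe each of miR-195a-5p and miR-497a-5p is clear of the lines in OVX.

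The hairpins' other arms gave little signal. Of the 8 passenger arms, the strands usually discarded when a hairpin is processed, 0 were present on both arrays. miR-195a-3p was present on the OVX array only, with 31.2 in OVX and 10.8 in sham at its brighter probe, and the remaining 7 were present on neither. The X-linked cluster also holds miR-351, miR-542 and miR-450 genes; 0 of their 9 mature miRNAs were present on either array, so miR-322-5p was the only mature miRNA of that neighbourhood, among the 13 read, that was present. The 4 other miRNAs on the array with a member's seed, miR-195b, miR-6342, miR-6353 and miR-6419, were present on neither array. Absence was the usual reading: of all 1881 miRNAs, 299 were present on the OVX array and 202 on the sham array. These counts therefore do not set the passenger arms, the X-linked neighbours or the other seed carriers apart.

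miR-103-3p and miR-107-3p carry the same AGCAGC letters shifted by 1 base towards the 5′ end, which gives them another seed, GCAGCAU, and they are often grouped with the miR-15/16 family.
miR-103-3p: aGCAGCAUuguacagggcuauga
miR-107-3p: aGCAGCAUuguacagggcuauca
Both were lower in OVX after scaling. Unscaled, each of their probes was brighter in OVX, at 1.48 to 1.51 times sham, less than the scaling factor of 2.02. Their sign therefore depends on the scaling, like that of miR-15b-5p. The level of miR-103-3p was -0.15 in OVX and 0.27 in sham, a difference of -0.42 (spot SE 0.05), and that of miR-107-3p was -0.95 in OVX and -0.52 in sham, a difference of -0.43 (spot SE 0.04). Each difference was below that of miR-15b-5p, the lowest of the family. The 2 sequences differ by 1 base near the 3′ end, so their readings may share signal, which was not measured.

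The spread within the family was compared with that of other seeds. Among the 162 measured miRNAs with a RefSeq mature sequence, 14 seeds were shared by at least 2, and the miR-15/16 seed ranked 4 of these by range. The ranges had a median of 0.49 and reached 1.0. A range grows with the number of members, and among the 4 seeds with at least 4 measured miRNAs the family ranked 3. let-7 and miR-98, known for restraining growth, had 7 of 9 members measured; 4 differences were positive and 3 negative, the median was 0.06 and the range 0.78. The miR-17-92 and miR-106b-25 clusters, known for promoting growth of blood cells, had 8 of 9 measured and 1 present in OVX only. The differences of 5 were positive and of 3 negative; their median was 0.14 and their range 0.97. The miRNAs with differences closest to the family median, among those of at least median level and outside the lists of related sequences above, were miR-106b-5p (0.08), miR-6368 (0.10) and miR-26a-5p (0.06), a likeness that rests on 2 samples.

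**Figure D4:**
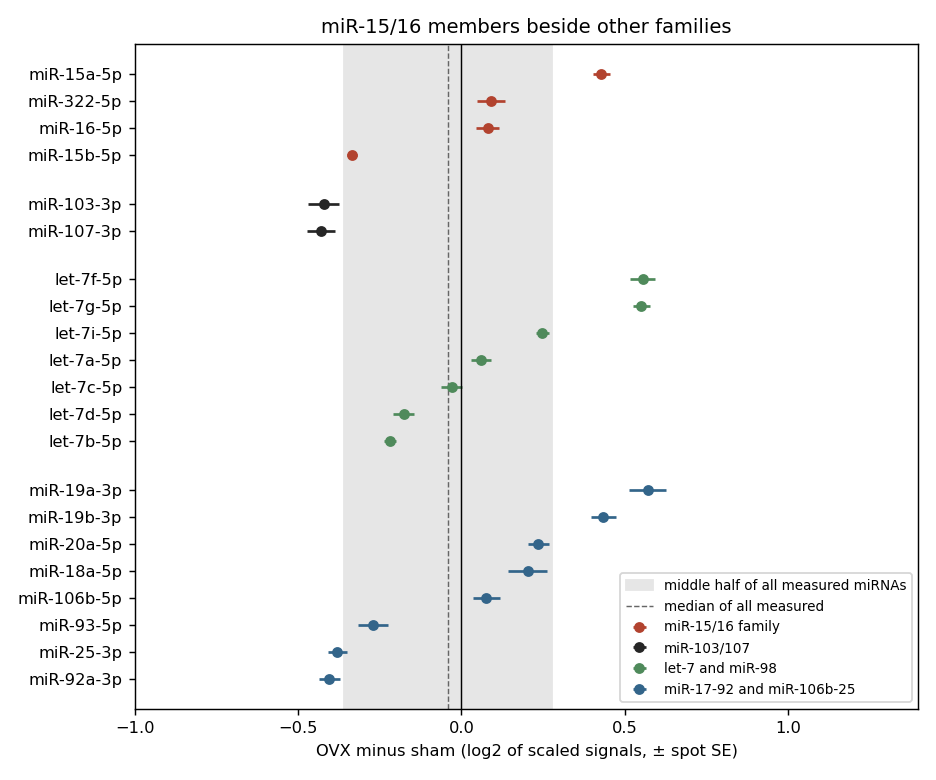
Difference OVX minus sham on the log2 scale with its spot SE (horizontal axis) for the measured members of the miR-15/16 family and of 3 comparison groups; the grey band spans the quartiles of all 197 measured miRNAs (-0.36 to 0.28) and the dashed line their median. Of the 4 miR-15/16 members, miR-15a-5p lies outside the band.

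**Figure D5:**
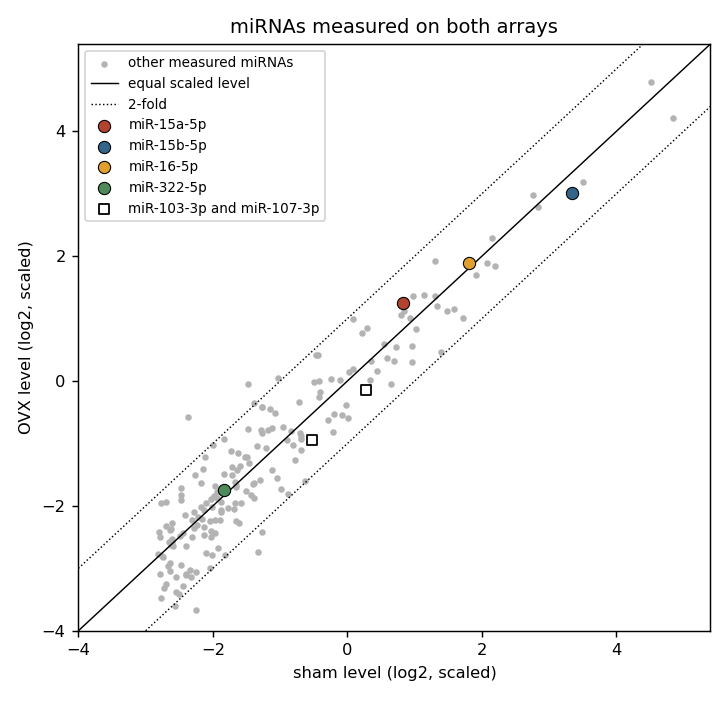
Scaled log2 level in OVX (vertical axis) against that in sham (horizontal axis) for the 197 miRNAs present on both arrays; filled circles are the miR-15/16 members, open squares miR-103-3p and miR-107-3p, and dotted lines mark 2-fold. The 4 members lie between the dotted lines, miR-15a-5p above the line of equal level and miR-15b-5p below it.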

How the data were processed

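Members and comparison lists were chosen with earlier results of these data known. Per the labels' protocols, femurs with marrow and bone were homogenised and the extraction kit retains small RNA; the labelling text describes Cy3-labelled, amplified cRNA and is left as it stands. The authors deposited Agilent Feature Extraction files (version 10.7.1.1 per the file headers, 11.0.1.1 per the submitters' processing notes) whose processed intensity per spot is background-subtracted and not normalized between arrays, with outlier, saturation and background flags. The deposited value table is on a log2 scale by its values; its column medians were -3.32 (OVX) and -3.18 (sham), and the labels give no normalization for it. The names sit 1 row off: the Spearman correlation with the gene-level signal was 0.06 (OVX) and 0.04 (sham) as printed and 0.99 for each once moved, so it served as an alternative with names moved.

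Control spots and spots with an outlier flag (2.90% in OVX, 2.75% in sham) were left out; no miRNA spot was saturated. Spots were averaged per probe, log2-transformed and scaled to the 75th percentile of 350 probes read well above background on both arrays; levels per miRNA average those probes. Where 1 array lacked the miRNA, the bound set the bright level against the higher of the lowest level of a present miRNA and the dim probe's own level. The most alike miRNAs were the 3 closest in difference to the family median, at or above the median level, leaving out members, other miRNAs with a member's seed, passenger arms, the X-linked neighbours and miR-103/107. RefSeq sequences matched 1608 of the 1881 names. Alternatives covered scaling, background correction, summaries and filters; removal of GC or level trends, positions unflagged on both arrays, the contrast within the pair and the family median relative to all miRNAs were added after seeing the data. Python 3.11.15, numpy 2.4.6, pandas 2.3.3 and limma 3.58.1 (normexp) were used.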

Additional observations from a re-analysis of the deposited data

How the results depend on the processing

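The family's median difference, 0.09 as reported, was -0.10 with median scaling, 0.72 with scaling to control probes, 1.1 without scaling and 0.43 with the gene-level signal; these settings also moved the median of all measured miRNAs, to -0.23, 0.59, 0.97 and 0.19. The family's median difference was above 0 in 15 of 17 alternatives and was -0.06 with the GC trend removed. Flooring dim signals and requiring all spots well above background left it and the member differences as reported. No scaling or control-probe scaling could only raise them, so the sign was fixed in advance there too. Set against the median over all measured miRNAs, the family median was 0.13, above 0 in 16 of 17 alternatives and -0.04 with the GC trend removed. Alternatives that only shift each array by a constant, such as no scaling, leave this value unchanged, so their sign was fixed in advance. miR-16-5p was below 0 in 4 of 17 alternatives (-0.10 to 1.09) and miR-322-5p likewise in 4 (-0.09 to 1.1). The contrast of miR-15a-5p minus miR-15b-5p moved from 0.76 to 0.51 with quantile normalization and 0.44 with normexp and quantile normalization. The number of members at least 2-fold different, 0 as reported, was 3 without scaling and 1 with scaling to control probes, all higher in OVX. Over all measured miRNAs the count of 8 (4 higher and 4 lower in OVX) became 15 (12 and 3) with the 75th percentile of all probes, 14 (2 and 12) with median scaling, 11 (3 and 8) with quantile normalization, 97 (97 and 0) without scaling, 39 (39 and 0) with control probes, 27 (15 and 12) with the gene-level signal, 0 with normexp (offset 50) and quantile normalization together and 51 (22 and 29) at 1.5-fold. Members present on both arrays numbered 4 when all spots had to be well above background and 6 when any spot sufficed. No paired analysis was possible because each group is 1 sample, and leaving out a replicate could not be run for the same reason. The limits are 1 pooled sample a group and the brighter miRNA signals of the OVX array. The log2 75th percentile was 1.01 higher in OVX, and the control probes were 0.38 higher. A further limit is that 3 of 7 members were at or near background on the sham array.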

Other observations

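miR-497b, which RefSeq places on the opposite strand of the Mir497 locus and which has no member's seed, was present on both arrays, unlike miR-497a-5p. It was chosen after its values were seen. Its probes gave 61.3 and 66.6 in OVX and 37.7 and 37.9 in sham. Its level was -2.03 in OVX and -1.77 in sham, a difference of -0.26 (spot SE 0.08), with its probes at -0.32 and -0.19.

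In the deposited value table, with names moved by 1 row, miR-15a-5p differed by 0.40, miR-15b-5p by -0.26, miR-322-5p by 0.03 and miR-16-5p by 0.34 (OVX minus sham). miR-16-5p was therefore closer to miR-15a-5p there than in the probe signals, where it was at 0.08.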
